A study of Danio rerio with 3 samples.

Results

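The 7 genes described here are markers of progenitors and motor neurons of the spinal cord, together with a proteolipid gene of the myelin-forming lineage: olig2, olig4, nkx2.2a, nkx6.1, nkx6.2, mnx1 and plp1a. They were found by symbol, with case ignored, among the 25961 genes of a table of RNA levels. The list held 8 symbols, and 1 of them, olig3, has no row under that symbol. A row without a symbol (ENSDARG00000074253) is paired with olig3 in a table of gene names. Its values are given beside those of the 7 genes and are not counted among them. The genes were chosen by their FPKM levels and differences in these same libraries, so the levels and folds are a description and carry no test.

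RNA was sequenced from zebrafish embryos (Danio rerio, Tuebingen strain) at 24 hours post fertilization, with 30 whole embryos pooled, from different experiments, in each of 3 libraries. One group was given 6 ng of hnrnpaba morpholino, another was given 3 ng of it, and the third was given 3 ng of a standard control morpholino. Each was injected at the 1-cell stage and has 1 library, and the sample titles spell the target HNRNPAB. Morpholinos are antisense molecules used to keep an RNA from being translated or spliced, and hnrnpaba encodes an RNA-binding protein of the hnRNP A/B family. The comparisons asked how the RNA of the embryos given hnrnpaba morpholino differed from that of the control embryos, and how the doses differed from each other. The 6 ng library differs from the control in the mass injected as well as in the target.

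In the developing spinal cord, Sonic hedgehog from the notochord and floor plate sets up bands of progenitors along the ventral to dorsal axis, each marked by its own transcription factors. The Nkx6 factors mark the ventral progenitors, Nkx2.2 marks those next to the floor plate, and Olig2 marks the band just dorsal to these, which gives motor neurons first and oligodendrocyte precursors later. Mnx1 is switched on as motor neurons leave the cell cycle, and proteolipid protein is a major membrane protein of mammalian central myelin. The label of the list is only partly borne out by what these genes are known for. In zebrafish olig4, which carries olig3 as an older name in RefSeq, is known from the dorsal cord and the neural plate border, and mouse Olig3 is a marker of dorsal progenitors.

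The libraries held 13557636 fragments at 6 ng, 17748075 at 3 ng and 14589056 in the control, as recovered from the steps between the deposited FPKM values, which are fragment counts scaled by gene length and library size. The transcript of the target, hnrnpaba, stood at 342 FPKM at 6 ng, 459 FPKM at 3 ng and 442 FPKM in the control, which does not check the labels, since a morpholino need not lower its target's RNA. The control column of the table names neither morpholino nor dose and was matched as the 1 control of the series. With 1 library in each group no difference has a replicate check. Each fold is a ratio of FPKM, and the range in brackets is its 95% exact interval (Clopper-Pearson), which covers counting error only and not the spread between pools of embryos. In whole embryos, fewer cells of a type and less RNA per cell cannot be told apart.

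olig2 (ENSDARG00000040946, chromosome 9, 32751428 to 32753535, minus strand, in the coordinates of the deposited table), the basic helix-loop-helix factor of motor neuron and oligodendrocyte precursors, was the most abundant of the 7 genes in the control. It stood at 6.96 FPKM at 6 ng, 42.8 FPKM at 3 ng and 97.7 FPKM in the control, from 159 fragments at 6 ng, 1280 at 3 ng and 2401 in the control. Each library was separate from the others beyond counting error, with the control highest and 6 ng lowest. Against the control the fold was 0.0713 (0.0603 to 0.0837) at 6 ng and 0.438 (0.409 to 0.469) at 3 ng. On the log2 scale of FPKM + 1 the difference of olig2 at 6 ng was -3.63, the 2nd lowest value among the 16429 genes whose FPKM averaged at least 1 over the 3 libraries.

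**Figure D1:**
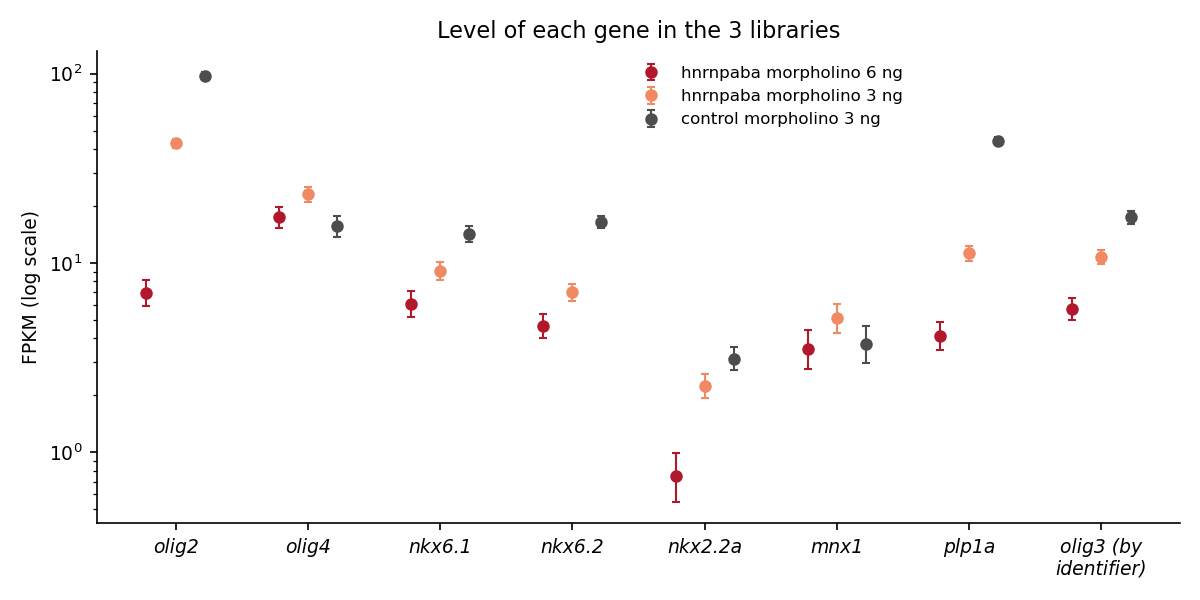
The level of each gene in FPKM, on a log scale, in the 6 ng, 3 ng and control libraries, 1 library each; bars are 95% exact Poisson intervals of the fragment count. olig2 stood at 6.96 FPKM at 6 ng, 42.8 at 3 ng and 97.7 in the control and plp1a at 4.13 at 6 ng, 11.2 at 3 ng and 44.2 in the control, whereas olig4 and mnx1 had their highest level at 3 ng.

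The homeodomain factors of the ventral progenitors were lower as well, by less than olig2 at 6 ng. nkx6.1 (ENSDARG00000022569, chromosome 21, 19070921 to 19073831, plus strand), which marks progenitors of motor neurons and of the interneurons beside them, stood at 6.09 FPKM at 6 ng, 9.08 FPKM at 3 ng and 14.3 FPKM in the control. Against the control nkx6.1 had a fold of 0.427 (0.355 to 0.512) at 6 ng and of 0.637 (0.549 to 0.737) at 3 ng. nkx6.2 (ENSDARG00000104735, chromosome 13, 51579851 to 51584264, plus strand), its paralog in the same progenitors, stood at 4.66 FPKM at 6 ng, 6.98 FPKM at 3 ng and 16.5 FPKM in the control. This gave nkx6.2 folds of 0.283 (0.239 to 0.334) at 6 ng and 0.424 (0.372 to 0.483) at 3 ng. The intervals of the 2 Nkx6 genes did not overlap at either dose. Within a library the level of nkx6.2 relative to nkx6.1 was 0.765 at 6 ng, 0.769 at 3 ng and 1.15 in the control. The third member of the family, nkx6.3, had few fragments, 4 at 6 ng, 5 at 3 ng and 23 in the control. Against the control nkx6.3 had a fold of 0.187 (0.0470 to 0.548) at 6 ng and of 0.179 (0.0531 to 0.481) at 3 ng.

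nkx2.2a (ENSDARG00000053298, chromosome 17, 42208623 to 42218652, minus strand) is a repressor that marks the progenitors next to the floor plate and is also used in the forebrain and the endocrine pancreas. It was the least abundant of the 7 genes, at 0.746 FPKM at 6 ng, 2.24 FPKM at 3 ng and 3.13 FPKM in the control. The fold of nkx2.2a against the control was 0.239 (0.170 to 0.329) at 6 ng and 0.717 (0.586 to 0.878) at 3 ng, so the larger step lay between the doses. Its paralog nkx2.2b had the same order, at 0.406 FPKM at 6 ng, 3.00 FPKM at 3 ng and 4.32 FPKM in the control. For nkx2.2b the fold at 6 ng was 0.0940 (0.0418 to 0.186), which rests on 9 fragments in the 6 ng library, and the fold at 3 ng was 0.694 (0.516 to 0.933).

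mnx1 (ENSDARG00000035984, chromosome 7, 40638210 to 40641006, plus strand), the homeodomain factor of newly formed motor neurons, did not go with the progenitor genes. It stood at 3.51 FPKM at 6 ng, 5.10 FPKM at 3 ng and 3.73 FPKM in the control, from 70 fragments at 6 ng, 133 at 3 ng and 80 in the control. At 6 ng the fold against the control was 0.942 with an interval of 0.673 to 1.31, a range that includes no difference. At 3 ng it was 1.37 (1.03 to 1.83), so 3 ng was the highest of the 3 libraries. The paralog mnx2a, also known from motor neurons, stood at 2.07 FPKM at 6 ng, 3.67 FPKM at 3 ng and 4.80 FPKM in the control (fold 0.430 at 6 ng, 0.267 to 0.676). mnx2b stood at 1.54 FPKM at 6 ng, 1.91 FPKM at 3 ng and 2.74 FPKM in the control (fold 0.561 at 6 ng, 0.328 to 0.939). mnx1 was thus the member of its family whose 6 ng interval included 1.

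plp1a (ENSDARG00000103732, chromosome 14, 14577246 to 14596699, plus strand) encodes proteolipid protein. It stood at 4.13 FPKM at 6 ng, 11.2 FPKM at 3 ng and 44.2 FPKM in the control, and against the control its fold was 0.0934 (0.0779 to 0.111) at 6 ng and 0.254 (0.229 to 0.281) at 3 ng. At 3 ng it was the lowest of the 7 genes relative to the control, and at 6 ng olig2 was. The related membrane glycoprotein gene gpm6aa, which is expressed in neurons, stood at 3.42 FPKM at 6 ng, 8.10 FPKM at 3 ng and 24.4 FPKM in the control, a fold of 0.140 (0.122 to 0.161) at 6 ng and 0.332 (0.304 to 0.361) at 3 ng. gpm6ba, from the same family, stood at 2.62 FPKM at 6 ng, 3.10 FPKM at 3 ng and 6.53 FPKM in the control. Of the other relatives, gpm6ab had smaller differences (fold 0.610 at 6 ng, 0.535 to 0.694), and the paralog plp1b had at most 8 fragments in any library.

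The Olig genes other than olig2 split. olig4 (ENSDARG00000052610, chromosome 13, 45967179 to 45968256, plus strand) was the member with the highest values relative to the control. It stood at 17.4 FPKM at 6 ng, 23.0 FPKM at 3 ng and 15.6 FPKM in the control, from 255 fragments at 6 ng, 440 at 3 ng and 246 in the control. For olig4 the fold against the control was 1.12 (0.933 to 1.33) at 6 ng and 1.47 (1.26 to 1.73) at 3 ng, so the interval at 6 ng included 1 and that at 3 ng lay above it. The row paired with olig3 by its identifier (chromosome 13, 1305351 to 1308020, minus strand) stood at 5.72 FPKM at 6 ng, 10.7 FPKM at 3 ng and 17.4 FPKM in the control. For olig3 the fold at 6 ng was 0.328 (0.279 to 0.384) and the fold at 3 ng was 0.616 (0.547 to 0.692), between those of olig2 and olig4. Because olig4 has been called olig3, the 2 rows were kept apart by identifier. olig1, which in mice acts in oligodendrocyte maturation, had few fragments at this stage. There were 5 at 6 ng, 17 at 3 ng and 27 in the control. The fold of olig1 against the control was 0.199 (0.0599 to 0.525) at 6 ng and 0.518 (0.265 to 0.985) at 3 ng. The level of olig4 was 2.51 times that of olig2 at 6 ng, 0.537 times at 3 ng and 0.160 times in the control, so the order of the 2 genes was turned round at 6 ng.

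**Figure D2:**
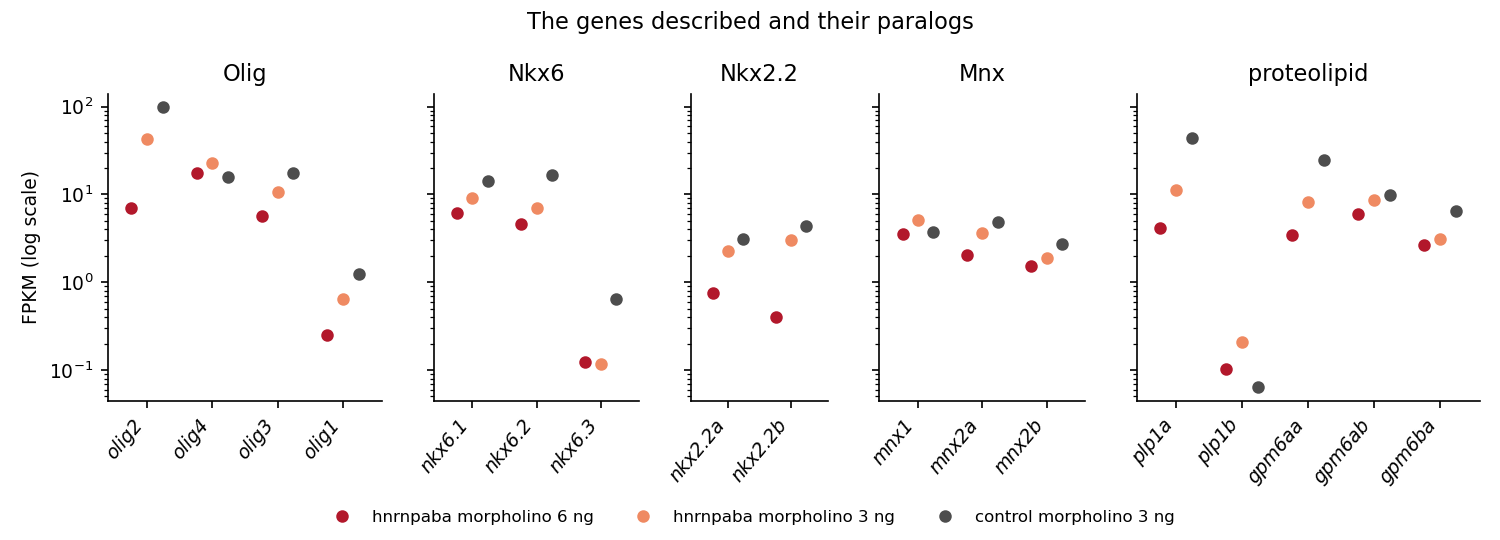
Levels in FPKM, on a log scale, of the genes described and of their paralogs in the 6 ng, 3 ng and control libraries, 1 library each. olig4 exceeded olig2 at 6 ng (17.4 and 6.96 FPKM), and plp1b, nkx6.3 and olig1 were measured from few fragments.

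With a limit of 2-fold on the log2 scale of FPKM + 1, 5 of the 7 genes were lower at 6 ng than in the control (olig2, plp1a, nkx6.2, nkx2.2a and nkx6.1) and 0 were higher. The same rule called 4.53% of all 16429 genes lower and 6.28% higher. At 3 ng, 3 of the 7 were lower than in the control (plp1a, olig2 and nkx6.2) and 0 were higher, where 2.20% of all genes were called lower and 3.68% higher. With 5 FPKM added in place of 1, nkx2.2a and nkx6.1 at 6 ng and nkx6.2 at 3 ng were no longer past 2-fold. nkx6.1 lay just past the 2-fold limit at 6 ng, with a log2 difference of -1.11, and nkx6.2 at 3 ng, with -1.13. The median log2 difference of the 7 genes was -1.24 at 6 ng and -0.60 at 3 ng, against 0.08 at 6 ng and 0.02 at 3 ng over all genes. Both comparisons use the same control library, and the genes were chosen with these differences known, so nothing is read from these shares. By the counting interval of the fold, 5 of the 7 lay below 1 and 0 above 1 at 6 ng, where 28.0% of all genes lay below and 38.5% above. At 3 ng 5 lay below and 2, olig4 and mnx1, above, where 29.2% of all genes lay below and 32.0% above. All 7 genes averaged at least 1 FPKM, and the lowest mean was that of nkx2.2a, 2.04 FPKM.

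**Figure D3:**
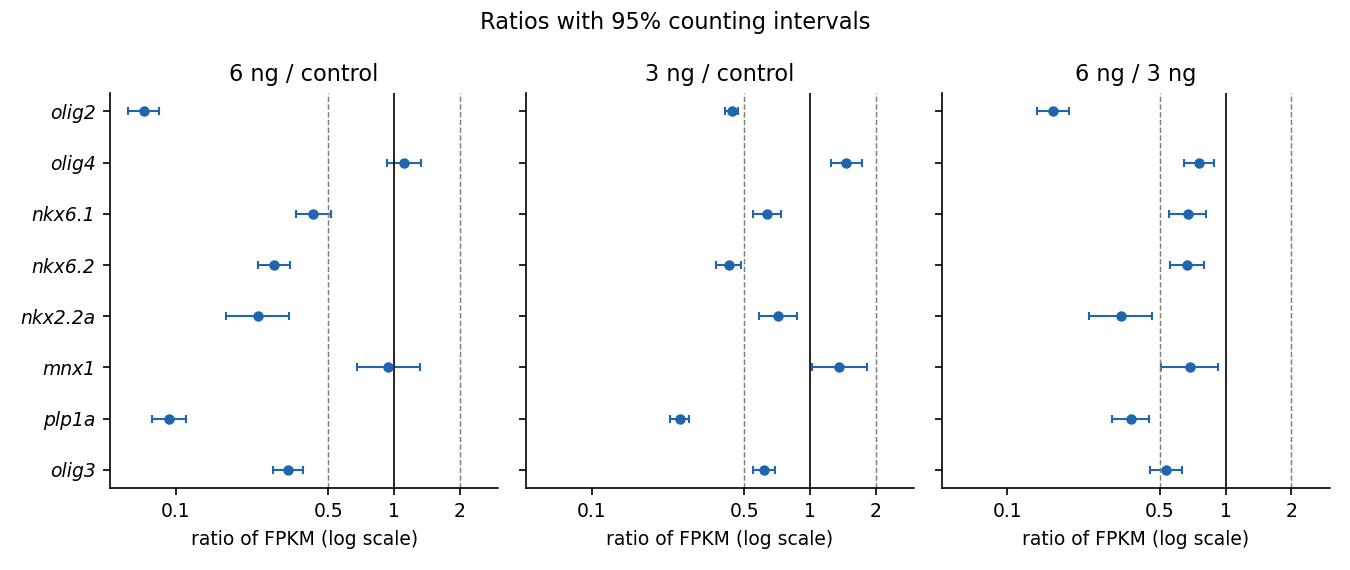
Ratios of FPKM on a log scale for 6 ng over control, 3 ng over control and 6 ng over 3 ng, with 95% exact counting intervals; dashed lines mark 2-fold differences. At 6 ng the intervals of olig4 (0.933 to 1.33) and mnx1 (0.673 to 1.31) include 1, and in 6 ng over 3 ng all points lie below 1.

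The libraries given 6 ng and 3 ng were then compared with each other, which leaves out the control. All 7 genes were lower at 6 ng than at 3 ng, with intervals below 1, where 17.7% of all genes lay below and 28.2% above. Of the 7, 2 were past 2-fold (olig2 and plp1a), where 0.992% of all genes were called lower and 1.11% higher by the same rule. The fold of olig2 was 0.163 (0.137 to 0.192), the 3rd lowest log2 difference (-2.46) among all genes tested, and that of plp1a was 0.368 (0.302 to 0.445). nkx2.2a, at 0.333 (0.236 to 0.460), was past 2-fold as a ratio but not with 1 FPKM added, since it is a gene of low level. The remaining 4 lay between 0.667 and 0.759: nkx6.2 at 0.667 (0.555 to 0.801), nkx6.1 at 0.671 (0.553 to 0.811), mnx1 at 0.689 (0.508 to 0.927) and olig4 at 0.759 (0.648 to 0.887). The intervals of these 4 overlap, so their order is not resolved at this depth, while that of olig2 overlapped with none of the other 6. The olig3 row gave 0.533 (0.451 to 0.629).

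**Figure D4:**
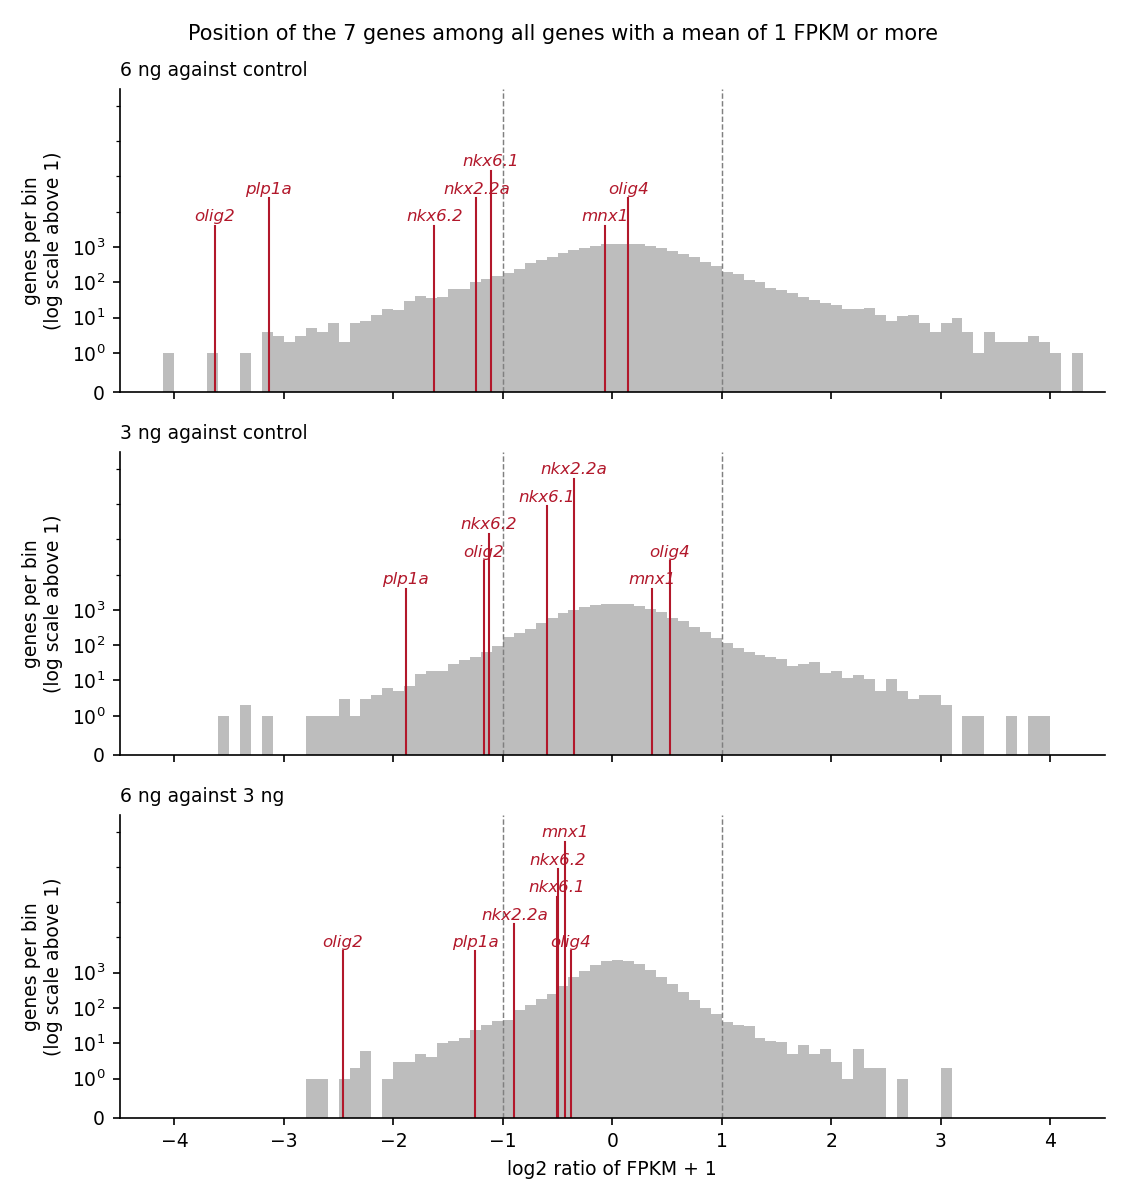
Histograms of the log2 ratio of FPKM + 1 over the 16429 genes that averaged at least 1 FPKM, for 6 ng against control, 3 ng against control and 6 ng against 3 ng, with the 7 genes marked in red and 2-fold limits dashed; the vertical axis is on a log scale above 1. In 6 ng against control olig2 and plp1a lie in the lower tail, at -3.63 and -3.14, and mnx1 and olig4 lie in the middle of the distribution. mnx1 and olig4 lie in its upper part in 3 ng against control, at 0.37 and 0.53. In 6 ng against 3 ng they lie in its lower part, at -0.43 and -0.38.

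The genes around these markers were read from 13 lists of cell types and pathways, where a measured gene is one that averaged at least 1 FPKM. The counts of these lists stand beside 4.53% lower and 6.28% higher over all genes at 6 ng, and 2.20% lower and 3.68% higher at 3 ng. Nothing is read from a list with 0 or 1 called gene. Other progenitor genes of the cord were lower at 6 ng, as 10 of 13 measured members were past 2-fold and 0 were higher, with a median log2 difference of -1.36. At 3 ng 1 of the 13, dbx1a, was past 2-fold, and the median was -0.55. dbx1b, a homeobox gene of progenitors midway up the cord, stood at 3.11 FPKM at 6 ng, 10.3 FPKM at 3 ng and 17.4 FPKM in the control. Its paralog dbx1a stood at 2.73 FPKM at 6 ng, 6.33 FPKM at 3 ng and 15.0 FPKM in the control. ascl1b, a proneural gene, stood at 4.17 FPKM at 6 ng, 10.5 FPKM at 3 ng and 18.4 FPKM in the control. The progenitor genes that did not pass were irx3a, irx5a and prdm12b, at log2 differences of -0.57, -0.44 and -0.79 at 6 ng. With 5 FPKM added in place of 1, 5 of the 13 were lower at 6 ng and the median was -0.76.

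Of the neural progenitor genes at large, 14 of 22 were lower and 0 higher at 6 ng (median -1.47), and 5 of 22 were lower at 3 ng (median -0.79). fabp7a, the brain fatty acid binding protein of radial glia, stood at 5.50 FPKM at 6 ng, 13.3 FPKM at 3 ng and 49.1 FPKM in the control. Its log2 difference at 6 ng, -2.95, was the lowest of the measured genes in the 13 lists, and those of olig2 and plp1a lay below it. The ratio of olig2 to the pan-neural factor sox2 within a library was 0.268 at 6 ng, 1.19 at 3 ng and 1.94 in the control, and its ratio to the neuronal gene elavl3 was 0.243 at 6 ng, 1.21 at 3 ng and 1.63 in the control. olig2 thus differed by more than either gene did. Of 18 measured pan-neuronal genes 1, elavl3, was past 2-fold at 6 ng and 0 at 3 ng. elavl3 stood at 28.7 FPKM at 6 ng, 35.4 FPKM at 3 ng and 60.03 FPKM in the control. The list's median was -0.41 at 6 ng against -0.05 at 3 ng, and its genes lay on both sides of the control. At 6 ng elavl4 had a fold of 0.625 (0.537 to 0.726) and stmn1b of 0.782 (0.698 to 0.875), while gap43 had 1.19 (1.06 to 1.33).

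Among 13 measured motor neuron genes, 3 were lower and 0 higher at 6 ng (median -0.56), and 1, onecut1, was lower at 3 ng (median -0.21). This list rests on genes of low level: with 5 FPKM added 0 were lower at 6 ng, and with a floor of 5 FPKM on the mean 0 were lower and the median was 0.05. The 3 were onecut1 (1.47 FPKM at 6 ng, 1.70 FPKM at 3 ng and 7.30 FPKM in the control) and the cranial motor neuron genes phox2a and phox2bb. phox2a stood at 0.398 FPKM at 6 ng, 0.652 FPKM at 3 ng and 2.18 FPKM in the control, and phox2bb at 0.851 FPKM at 6 ng, 1.31 FPKM at 3 ng and 2.96 FPKM in the control. The measured LIM homeobox genes of spinal motor neurons were not past 2-fold at 6 ng against the control, and they differed among themselves. isl1 stood at 8.65 FPKM at 6 ng, 10.1 FPKM at 3 ng and 10.3 FPKM in the control. isl2a stood at 24.7 FPKM at 6 ng, 21.9 FPKM at 3 ng and 15.7 FPKM in the control, a fold of 1.58 (1.38 to 1.80) at 6 ng. lhx4 stood at 2.05 FPKM at 6 ng, 5.10 FPKM at 3 ng and 3.63 FPKM in the control, a fold of 0.565 (0.420 to 0.756) at 6 ng, and it was past 2-fold lower at 6 ng than at 3 ng. lhx3, below the limit on the mean and so without a call, had 9 fragments at 6 ng, 16 at 3 ng and 28 in the control. Its fold at 6 ng was 0.346 (0.144 to 0.754), past 2-fold as a plain ratio. Of the genes of acetylcholine use, slc5a7a (a choline transporter) had a fold of 0.387 (0.292 to 0.508) at 6 ng. That of chata (the synthesizing enzyme) was 0.512 (0.317 to 0.808), and that of slc18a3a (a vesicular transporter) was 0.716 (0.572 to 0.893). At 3 ng the folds were 0.818 for slc5a7a, 0.526 for chata and 1.19 for slc18a3a. Of the measured motor neuron genes, isl2a and chodl (fold 1.28, 1.03 to 1.59) thus lay above the control at 6 ng, and all others lay below it. Among those below, isl2b had an interval that included 1 (fold 0.897, 0.694 to 1.16).

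Ventral interneuron genes had 6 of 13 measured members lower at 6 ng, led by bhlhe22 (0.772 FPKM at 6 ng, 2.72 FPKM at 3 ng and 5.16 FPKM in the control) and vsx1 (0.602 FPKM at 6 ng, 2.05 FPKM at 3 ng and 3.87 FPKM in the control). At 3 ng 0 of the 13 were lower or higher. With 5 FPKM added, or with a floor of 5 FPKM on the mean, 1 of the list was lower at 6 ng, and with that floor the median was 0.46, against -0.88 without it. In that list 1, tal1, which is also a blood gene, was higher (14.9 FPKM at 6 ng, 11.7 FPKM at 3 ng and 5.71 FPKM in the control).

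The floor plate is the ventral source of Sonic hedgehog. At 6 ng 0 of its 10 measured members were lower and 3 were higher, with a median of 0.32, and at 3 ng 0 were lower and 2 higher, with a median of 0.27. shha stood at 15.2 FPKM at 6 ng, 15.9 FPKM at 3 ng and 8.71 FPKM in the control, a fold of 1.75 (1.57 to 1.94) at 6 ng and 1.82 (1.65 to 2.01) at 3 ng. shhb was past 2-fold, at 6.61 FPKM at 6 ng, 7.26 FPKM at 3 ng and 2.72 FPKM in the control. shha is also made in the notochord. ccn2a (92.4 FPKM at 6 ng, 82.1 FPKM at 3 ng and 36.1 FPKM in the control) and foxj1a are not confined to the floor plate either. spon1a, an extracellular matrix gene below the limit on the mean, stood at 0.236 FPKM at 6 ng, 0.558 FPKM at 3 ng and 1.56 FPKM in the control, a fold of 0.152 (0.0697 to 0.295) at 6 ng, and with no limit it was past 2-fold lower. ntn1a, a netrin that guides axons, had a fold of 0.740 (0.668 to 0.820) at 6 ng. Their paralogs differed from them: at 6 ng ntn1b had a fold of 1.18 (1.03 to 1.34) and spon1b of 0.966 (0.870 to 1.07). For foxa the fold at 6 ng was 1.33 (1.09 to 1.64), and for foxa1 it was 1.24 (1.03 to 1.48). foxa2, which floor plate shares with endoderm, stood at 6.70 FPKM at 6 ng, 8.78 FPKM at 3 ng and 7.93 FPKM in the control.

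The Hedgehog pathway genes had 1 of 19 lower at 6 ng, scube2, which helps release the ligand (8.07 FPKM at 6 ng, 11.3 FPKM at 3 ng and 22.3 FPKM in the control), and 0 past 2-fold at 3 ng, so the count is near the 4.53% of all genes. The median of the pathway was -0.36 at 6 ng and -0.22 at 3 ng. The receptor gene ptch1, which is transcribed in response to the signal, did not pass 2-fold. ptch1 stood at 9.98 FPKM at 6 ng, 10.2 FPKM at 3 ng and 19.5 FPKM in the control. Between the doses the fold of ptch1 was 0.974 (0.879 to 1.08), and 0 of the 19 pathway genes were past 2-fold. Over the same step the folds of the genes described ran from 0.163 for olig2 and 0.333 for nkx2.2a to 0.689 for mnx1 and 0.759 for olig4. The intervals of mnx1 and olig4 overlapped that of ptch1, and those of the others did not. The part of Hedgehog signalling in these differences was not tested.

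**Figure D5:**
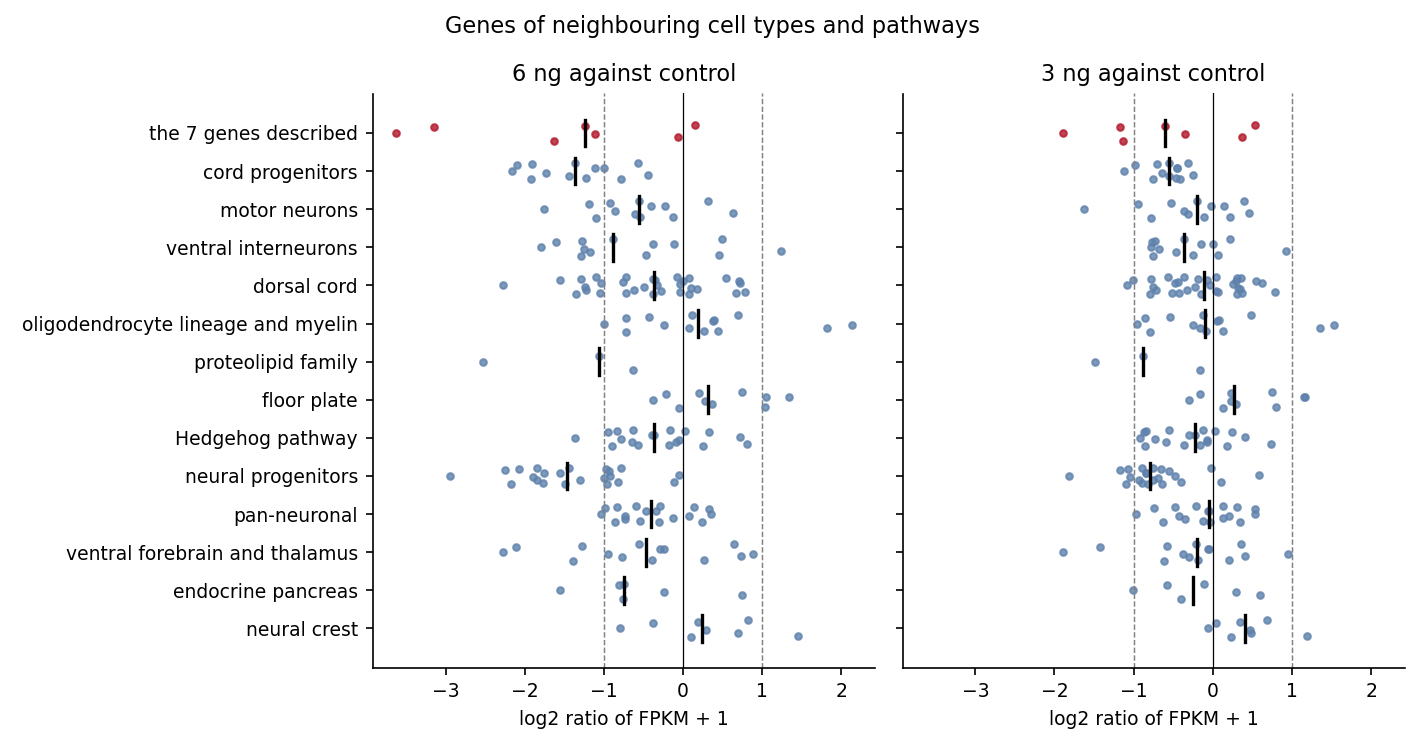
Log2 ratios of FPKM + 1 against the control at 6 ng and 3 ng for the 7 genes described (red) and for the measured genes of 13 lists (blue); black bars are medians and dashed lines are 2-fold limits. Cord and neural progenitor genes had medians of -1.36 and -1.47 at 6 ng, and floor plate genes 0.32.

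Dorsal cord genes, where olig4 and olig3 are known from, were mixed, with 9 of 32 measured members lower and 0 higher at 6 ng, a median of -0.36, and 2 of 32 lower at 3 ng, a median of -0.11. With 5 FPKM added 1 was lower at 6 ng. gsx1, of dorsal interneuron progenitors, was farthest below the control (1.66 FPKM at 6 ng, 6.58 FPKM at 3 ng and 11.8 FPKM in the control). By contrast msx1b, of the dorsal midline, stood at 51.2 FPKM at 6 ng, 54.3 FPKM at 3 ng and 31.1 FPKM in the control without passing 2-fold. The other defining markers of the list were lower at 6 ng, and pax7a and atoh1a passed 2-fold. Their folds were 0.261 (0.193 to 0.349) for pax7a and 0.352 (0.236 to 0.515) for atoh1a. For wnt1 the fold was 0.721 (0.524 to 0.987), and for pax3a 0.810 (0.703 to 0.933). The pancreas, which shares nkx2.2a, nkx6.1 and mnx1 with the cord, had few fragments in its hormone genes, with 10 at 6 ng, 16 at 3 ng and 23 in the control for ins, and 0 at 6 ng, 7 at 3 ng and 11 in the control for gcga. Of the 6 measured pancreas genes, ptf1a, also a cord gene, was lower at both doses. The summed level of the pancreas list was 17.3 FPKM at 6 ng, 22.4 FPKM at 3 ng and 25.7 FPKM in the control, and its part in the values of the shared genes was not tested. Ventral forebrain and thalamus genes, from regions that also express olig2 and nkx2.2a, had 4 of 14 lower at 6 ng, led by otpa (0.963 FPKM at 6 ng, 1.55 FPKM at 3 ng and 8.48 FPKM in the control), with a summed level of 106 FPKM at 6 ng, 116 FPKM at 3 ng and 128 FPKM in the control. Their part was not tested either.

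The oligodendrocyte side of the label was checked with genes of later stages. mbpa, of compact myelin, had 7 fragments at 6 ng and 0 both at 3 ng and in the control, where a count of 0 allows up to 3 fragments. mag had 9 fragments at 6 ng, 8 at 3 ng and 0 in the control. At 6 ng against the control the interval of the fold began at 1.55 for mbpa and at 2.12 for mag, with no upper end. For mag at 3 ng it began at 1.40. These myelin genes were thus at or near 0, while mbpb stood at 18.7 FPKM at 6 ng, 15.7 FPKM at 3 ng and 17.7 FPKM in the control. mpz, below the limit on the mean, stood at 0.884 FPKM at 6 ng, 0.631 FPKM at 3 ng and 1.48 FPKM in the control. Of the 14 measured members of the list 0 were lower at either dose and 2 were higher at both. These were cldnk, a claudin of myelinating glia (8.11 FPKM at 6 ng, 4.30 FPKM at 3 ng and 1.07 FPKM in the control), and cd59, a complement regulator (9.48 FPKM at 6 ng, 7.58 FPKM at 3 ng and 1.98 FPKM in the control). sox10, which the oligodendrocyte lineage shares with neural crest, stood at 20.6 FPKM at 6 ng, 17.7 FPKM at 3 ng and 12.3 FPKM in the control. Neural crest genes had 0 of 8 lower and 1, snai1b, higher at both doses. Other genes of the oligodendrocyte list were lower at 6 ng without a 2-fold call, with intervals below 1. Of the genes known from precursors, pdgfra had a fold of 0.577 (0.525 to 0.633), gpr17 of 0.497 (0.293 to 0.820) and cspg4 of 0.640 (0.518 to 0.787) at 6 ng. The transcription factor genes tcf7l2 and myrf had folds of 0.448 (0.399 to 0.503) and 0.334 (0.1999 to 0.540), and myrf was below the limit on the mean. As plain ratios gpr17, tcf7l2 and myrf were past 2-fold, as was olig1 at 0.199. With 1 FPKM added the log2 differences were -0.72 for gpr17 and -0.994 for tcf7l2. myrf and olig1, both below the limit on the mean, had no call. The part of other tissues of the whole embryo in these folds was not tested. The list thus held values on both sides of the control, with a median of 0.19 at 6 ng and -0.10 at 3 ng.

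The genes nearest in pattern were found by the distance between the log2 differences of 2 genes at 6 ng and 3 ng against the control, over 3 libraries. For olig2 the nearest 5 lay 0.608 to 0.680 away. They were a row named as 5S ribosomal RNA, si:ch211-251b21.1, the melanin synthesis gene tyrp1b and the lens crystallin genes crygn2 and crybb1l2. The 5S row, the nearest, rests on 0 fragments at 6 ng, 8 at 3 ng and 13 in the control. For plp1a the nearest 5 lay at 0.204 to 0.339 and were an unnamed row, fabp7a, crybb1l2, tyrp1b and the row ENSDARG00000045914. The unnamed row rests on 2 fragments at 6 ng, 13 at 3 ng and 63 in the control. olig2 thus had no gene as close as plp1a had. Few genes have a 6 ng difference near that of olig2, -3.63, so this distance does not show a pattern of its own.

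Neighbours on the chromosome were read at 6 ng against the control, where 4.53% of all genes were called lower. 0 of the 7 genes overlapped another row of the table. Within 100 kb of olig2 lay 4 measured genes, of which 0 were past 2-fold lower at 6 ng and 1, the interferon response gene mxc, was higher. olig1 lies 20.9 kb from olig2 on the same strand. Around plp1a 1 of 9 measured neighbours was lower at 6 ng (rab9b, 2.86 FPKM at 6 ng, 2.63 FPKM at 3 ng and 7.26 FPKM in the control), and around mnx1 1 of 5 (lmbr1, 4.71 FPKM at 6 ng, 3.81 FPKM at 3 ng and 11.2 FPKM in the control). The olig4, nkx6.2 and olig3 rows all lie on chromosome 13, megabases apart. At 6 ng the interval of olig4 lay apart from those of nkx6.2 and olig3, which overlap.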

How the data were processed

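The deposited data are 1 table by the authors, with FPKM per library, Ensembl identifier, symbol and position of 25961 genes. Per the labels' protocols, reads from a BGISEQ-500 were mapped to a zebrafish genome and its genes; aligner, build, annotation and strandedness: not given in the sources used here. Columns were matched to libraries by name. The control column names neither morpholino nor dose and was taken as the control because the series has 1, and values against the control depend on that. Unused value columns number 0.

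Library totals and whole fragments were recovered from the steps between FPKM values of genes whose model equals their span. Per gene, the smallest length giving 3 whole counts, within at most 0.05 fragments, was kept; 25961 genes had one, and the recovery was tested on simulated data. Where several lengths solve (nkx2.2a and plp1a here), the counts may be understated and the intervals too wide. The 16429 genes averaging at least 1 FPKM entered the counts; log2 ratios were taken after adding a pseudocount of 1 FPKM, which understates differences of low genes, and the limit was 2-fold. With 1 library in each group no p-value was computed.

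The members and lists were chosen with earlier results of these data known. A planned comparison of sequences was not run. Some results are not reported here. Named genes were the members, at most the 4 list genes farthest from the control in each direction, and the nearest 5 genes in pattern. Defining markers of the lists were named in part, and those of the neural crest and pancreas lists were mostly left out. Other genes that did not pass or lay below the limit on the mean, paralogs and neighbours were named after their values were seen. Of 218 list symbols 209 were matched, 196 by their own symbol, 12 through a separate gene name list and 1 through RefSeq (GRCz12tu). Reads of near-identical paralogs cannot be divided with certainty. Python 3.11.15, NumPy 2.4.6, pandas 2.3.3 and SciPy 1.17.1 were used.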

Additional observations from a re-analysis of the deposited data

How the results depend on the processing

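The 6 alternatives were pseudocounts of 0.1 and 5 FPKM, no filter, a mean of 5 FPKM or more, and rescaling to equal sums or by the median ratio. With 5 FPKM, 3 of the 7 genes were called lower in 6 ng against control and 1 in 6 ng against 3 ng; the median at 6 ng was -0.80, against -1.80 with 0.1 FPKM. With a floor of 5 FPKM on the mean, which leaves out nkx2.2a and mnx1, the medians were -1.63 at 6 ng and -1.13 at 3 ng. Of the lists, those of the cord had smaller counts at 6 ng with 5 FPKM, where 5 cord progenitor, 0 motor neuron, 1 ventral interneuron and 1 dorsal cord gene were lower; neural progenitors had 13. A larger pseudocount shrinks differences by construction. In each of the 3 comparisons all 40 recomputed values of single genes kept their sign, and 38 (6 ng against control), 39 (3 ng against control) and 38 (6 ng against 3 ng) kept their side of the 2-fold limit. No paired analysis was possible because each group has 1 library. Depth limits nkx2.2b, olig1, nkx6.3, plp1b and the pancreatic hormone genes, which had few fragments.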
